A study of Homo sapiens with 30 samples.

Results

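The integrin, laminin and collagen chain genes were examined in T47D cells after knockdown of each of 4 subunits of the negative elongation factor NELF. All gene-level transcript clusters were taken whose single platform symbol named an integrin alpha or beta chain (ITGA, ITGB), a laminin alpha, beta or gamma chain (LAMA, LAMB, LAMC) or a collagen alpha chain (COL, number, A, number). This rule used names and no measured value, and it found 68 of 22011 transcript clusters: 13 integrin alpha chains, 8 integrin beta chains, 9 laminin chains and 38 collagen chains. A further 11 clusters of these families carried several symbols and were left out, among them ITGA1, ITGA4, LAMB3, COL7A1 and COL18A1. Another 5 single symbols that share the prefix without naming a chain were left out as well, namely ITGB3BP, ITGB1BP1, ITGBL1, ITGB1BP2 and COL18A1-AS1.

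T47D is an established human breast cancer line of luminal, estrogen receptor positive type. The groups were siNELF-A, -B, -C and -E, each T47D cells transfected with siRNA against the named NELF subunit, and the control, T47D cells transfected with siRNA against luciferase. In every group the siRNA was used at 10 nM, the medium was renewed after 48 hours, the cells were harvested 48 hours later, and 1 ug of total RNA was depleted of ribosomal RNA and hybridised to human exon arrays. There were 3 arrays in each of the 5 groups, described by the submitters as technical repeats of a condition, so a p-value here measures the spread between repeats of 1 cell line and not between separate cultures.

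NELF binds RNA polymerase II soon after transcription starts and holds it near the promoter until elongation is released. Integrins are cell surface receptors made of an alpha and a beta chain that bind matrix proteins outside the cell and the actin cytoskeleton inside it. Laminins are trimers of an alpha, a beta and a gamma chain and, with the type IV collagen network, build the basement membrane beneath breast epithelium. Fibrillar collagens form the fibres of the surrounding stroma, and they are made mainly by fibroblasts.

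Because NELF acts close to transcription start sites, the sequences around the starts of 4 chain genes whose signal differed from control in a knockdown are given here. They are RefSeq sequences on GRCh38.p14, written 5′ to 3′ on the gene's own strand, from 250 bases before to 50 bases after the start; capitals mark GGGCGG and its reverse complement CCGCCC, the core of the GC box bound by Sp1-type factors. ITGA5 lies on the minus strand at chr12:54419217-54419516, ITGB8 on the plus strand at chr7:20330650-20330949, COL12A1 on the minus strand at chr6:75206004-75206303 and COL4A5 on the plus strand at chrX:108439588-108439887.
ITGA5: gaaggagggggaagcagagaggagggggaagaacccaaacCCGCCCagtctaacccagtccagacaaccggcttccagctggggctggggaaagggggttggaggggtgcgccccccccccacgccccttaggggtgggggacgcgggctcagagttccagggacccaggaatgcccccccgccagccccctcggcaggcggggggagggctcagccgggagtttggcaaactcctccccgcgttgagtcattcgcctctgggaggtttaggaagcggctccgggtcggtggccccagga
ITGB8: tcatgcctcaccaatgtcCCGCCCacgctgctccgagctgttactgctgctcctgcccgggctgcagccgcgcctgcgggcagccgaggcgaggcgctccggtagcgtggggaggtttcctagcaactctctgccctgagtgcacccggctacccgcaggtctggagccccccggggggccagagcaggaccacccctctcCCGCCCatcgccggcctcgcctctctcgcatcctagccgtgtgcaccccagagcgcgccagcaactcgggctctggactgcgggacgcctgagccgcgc
COL12A1: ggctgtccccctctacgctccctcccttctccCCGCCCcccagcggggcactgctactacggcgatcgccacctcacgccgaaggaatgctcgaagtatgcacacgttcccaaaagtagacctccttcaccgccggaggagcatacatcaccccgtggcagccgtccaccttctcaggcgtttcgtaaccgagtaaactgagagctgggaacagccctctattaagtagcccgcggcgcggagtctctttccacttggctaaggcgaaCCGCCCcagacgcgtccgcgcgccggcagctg
COL4A5: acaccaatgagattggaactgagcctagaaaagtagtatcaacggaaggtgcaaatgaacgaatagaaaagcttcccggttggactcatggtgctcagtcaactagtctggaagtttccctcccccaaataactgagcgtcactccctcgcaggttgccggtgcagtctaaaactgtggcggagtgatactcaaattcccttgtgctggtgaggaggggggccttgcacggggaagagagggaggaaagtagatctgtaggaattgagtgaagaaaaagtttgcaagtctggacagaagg
ITGA5 held 1 such motif, ITGB8 and COL12A1 held 2 each, and COL4A5 held none. Of the 68 genes, 46 had an entry among 35116 RefSeq promoters of this length. GGGCGG on either strand was found in 54.3% of these 46 windows and in 45% of all windows. TATAAA on either strand, the core of the TATA box, was found in 6.52% of the 46 windows and in 11.5% of all windows. These motifs share no letter and cannot overlap. The median GC content was 66.7% in the 46 windows and 58.7% in all windows. Binding of NELF or polymerase at these promoters was not measured in these data.

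The deposited values were log2 signals, and a difference of 1 between groups is a 2-fold difference in signal. Signals of different genes come from different probes, so values below are compared between groups for the same gene and not between genes. A gene was called when limma's moderated test gave an adjusted p under 0.05 over all 22011 clusters and the difference reached 1.5-fold. The 40th percentile of cluster means, 3.90, served as a limit of brightness: no fold is given where both groups lie below it. It was reached by 37 of the 68 genes, and 31 lay below it, of which 15 lay below the 25th percentile. Among the 31 dim genes were COL3A1 (mean 3.67 over all arrays), LAMA2 (1.95), LAMA4 (1.96), ITGB3 (2.06), COL6A3 (2.90) and COL8A1 (1.80). Of the 10 luminal epithelial markers checked, 10 reached this limit, against 1 of 8 fibroblast, 2 of 8 endothelial, 3 of 9 leukocyte and 2 of 3 measured basal epithelial markers. The fibroblast marker VIM had a mean of 2.52, and no fibroblast, endothelial, leukocyte or basal marker was called in any knockdown. Of the 10 luminal markers, 2 were called lower after siNELF-A, 1 after siNELF-B, 2 after siNELF-C and 1 after siNELF-E. The summed linear signal of the fibroblast markers ranged from 76.2 to 81.6 after siNELF-A, 66.7 to 85.2 after siNELF-B, 70.0 to 82.9 after siNELF-C, 69.2 to 77.9 after siNELF-E and 72.1 to 78.9 in control. Luminal markers summed to 10231 to 13185 after siNELF-B and 13025 to 15049 in control. Leukocyte markers summed to 86.8 to 104.0 after siNELF-C, wholly above the 76.6 to 83.1 in control, and endothelial markers to 133.7 to 135.3 after siNELF-B, wholly above the 110.4 to 121.6 in control. Basal markers summed to 70.2 to 78.7 after siNELF-A, wholly above the 60.8 to 66.4 in control. After siNELF-C they summed to 55.6 to 60.4, wholly below control. The part of these sums in the results was not tested.

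**Figure D1:**
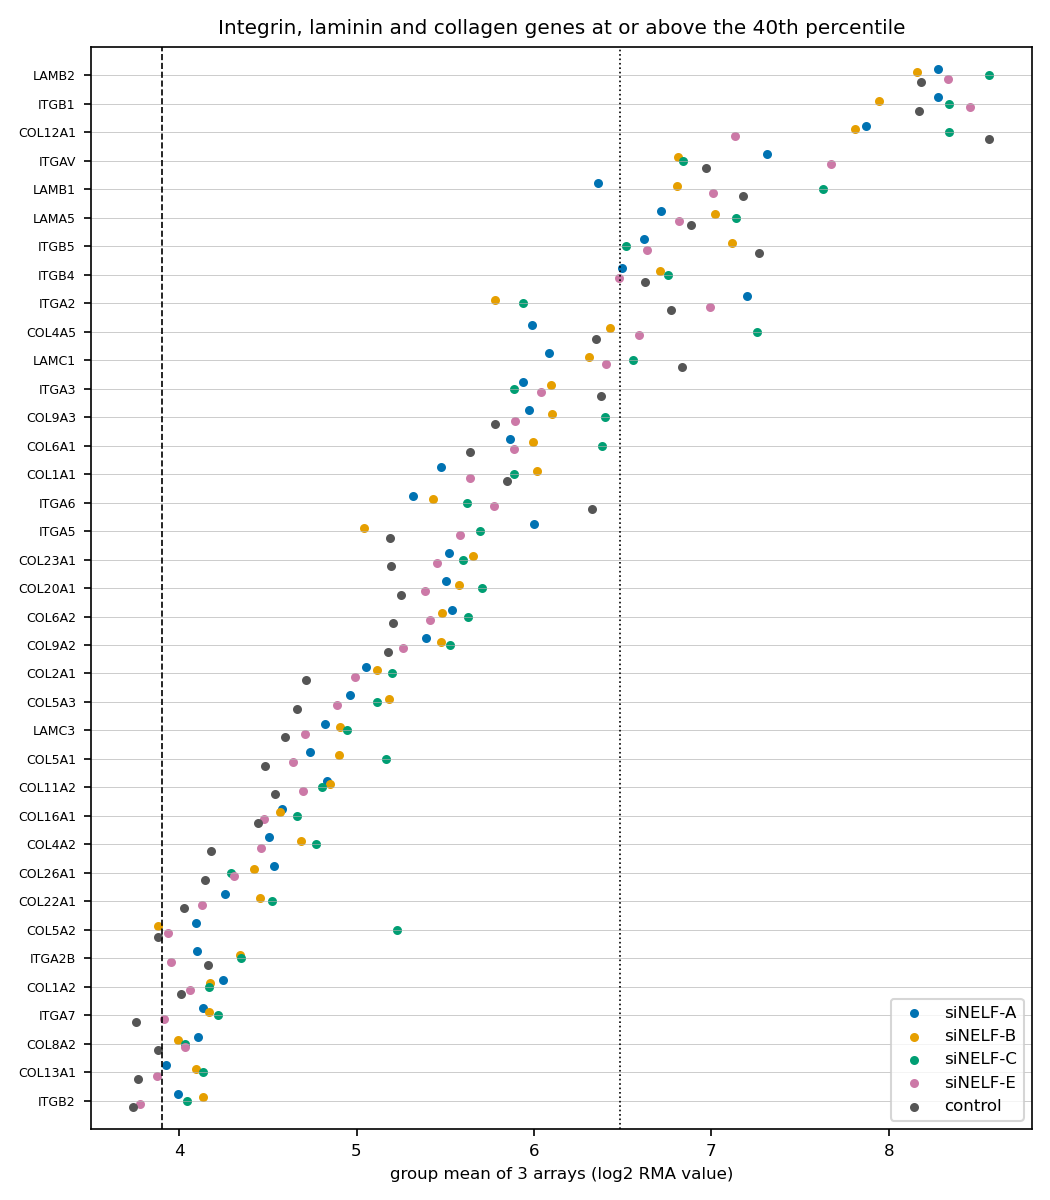
Group means of 3 arrays (x axis, log2 RMA value) for the 37 integrin, laminin and collagen genes whose mean over all arrays reached the 40th percentile of all clusters (dashed line, 3.90; the dotted line at 6.48 is the 75th percentile). Colours are the siRNA groups; rows are ordered by signal brightness, which depends on the probes and is no order of expression, and COL12A1 after siNELF-E (7.13) and COL5A2 after siNELF-C (5.23) stand away from their other groups.

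Within siNELF-B the arrays differed more than within other groups. Replicate 3 had a mean correlation of 0.932 with all other arrays, the lowest of the 15. Replicate 2 was closer to the control arrays (mean correlation 0.984) than to its own group (0.945). Correlations over all clusters were 0.917 to 0.973 within siNELF-B, against 0.984 to 0.985 within siNELF-A, 0.985 to 0.988 within siNELF-C, 0.987 within siNELF-E and 0.987 to 0.990 within control. The interquartile range of values was 3.57, 4.02 and 3.12 on siNELF-B replicates 1, 2 and 3 and 3.95 to 4.12 on control arrays. Since all groups share the estimate of spread, calls of the 68 genes against control were also computed without siNELF-B replicates 2 and 3. So were the counts of their calls between knockdowns and of their exon-level probe sets. Marker genes, the genes of the partner lists below, single calls between knockdowns and single probe sets tested for exon usage were not recomputed. As checks of the targets, the median of the gene's exon-level probe sets was 5.55 after siNELF-C and 9.26 in control for NELFCD (log2 difference -3.71 ± 0.30 SE, adjusted p = 9.45e-06) and 4.65 after siNELF-E and 7.26 in control for NELFE (-2.61 ± 0.22 SE, adjusted p = 2.49e-05). NELFA was 5.63 after siNELF-A and 6.24 in control, a difference that did not pass (-0.61 ± 0.21 SE, adjusted p = 0.176), and the target of siNELF-B was not analysed here.

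Few of the 68 genes were called. In the average of the 4 knockdowns against control, 0 of 68 passed the adjusted test and the fold limit together, while 4.81% of all clusters did; 16 of the 68 had an unadjusted p under 0.05. ITGA5 (0.39, adjusted p = 0.0319), COL5A2 (0.40, adjusted p = 0.0301) and ITGB8 (-0.47, adjusted p = 0.0487) had an average log2 difference under the 1.5-fold limit. In siNELF-A, 1 gene rose (ITGA5), against 3.32% of all clusters called, 0.495% higher. In siNELF-B, 1 gene fell (ITGB8), against 4.39% called, 4.19% lower. In siNELF-C, 3 collagen genes rose (COL5A2, COL4A5 and COL6A1) and 2 integrin beta genes fell (ITGB5 and ITGB8), against 6.22% of all clusters called, 0.922% higher and 5.3% lower. In siNELF-E, 1 gene fell (COL12A1), against 5.48% called, 1.44% higher and 4.04% lower. In all, 7 genes were called in at least 1 knockdown, ITGB8 in 2 of them, and none of the 68 in all 4. The shares of called genes in siNELF-A, siNELF-B and siNELF-E (1.47% each) lay below the shares for all clusters, and that in siNELF-C (7.35%) was close to it. The 4 comparisons share the 3 control arrays. The called transcript clusters were 3456732 (ITGA5, chromosome 12), 2692816 (ITGB5, chromosome 3), 2991860 (ITGB8, chromosome 7), 2961177 (COL12A1, chromosome 6), 2591643 (COL5A2, chromosome 2), 3986730 (COL4A5, chromosome X) and 3924372 (COL6A1, chromosome 21).

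**Figure D2:**
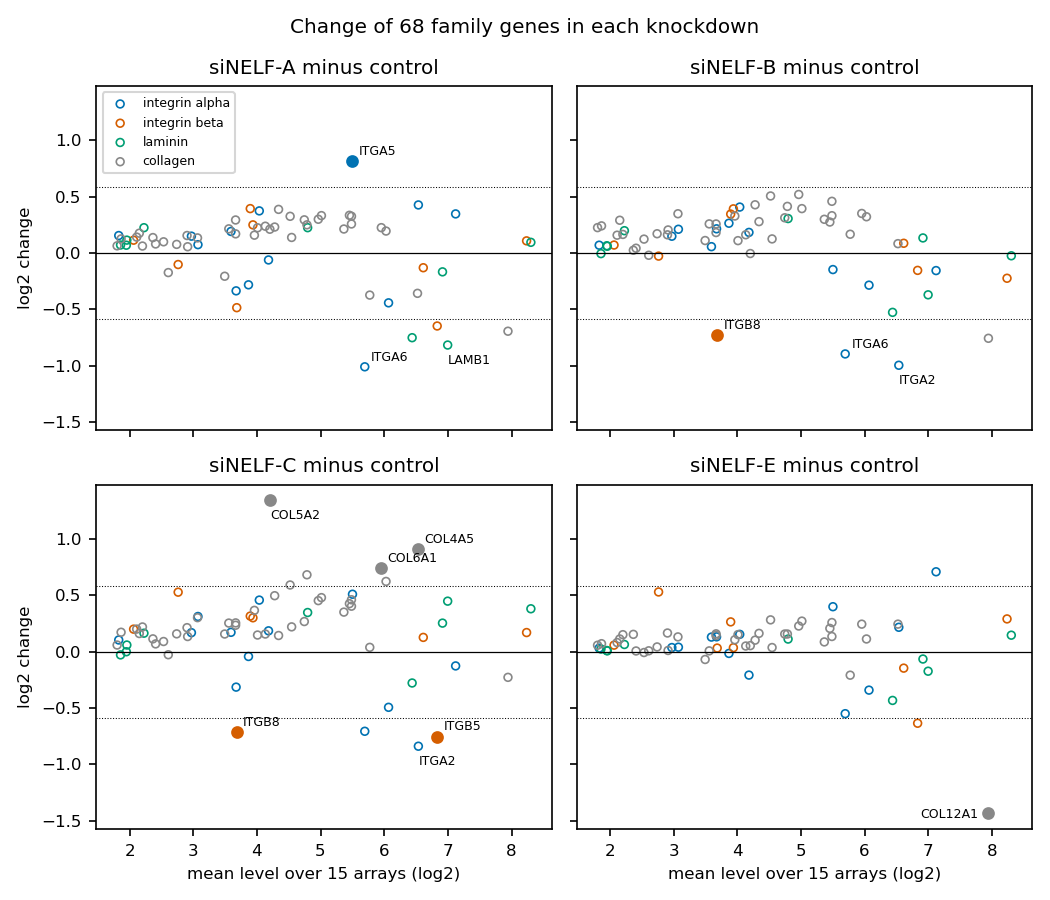
Log2 difference of each knockdown from control (y axis) against the mean log2 value over 15 arrays (x axis) for the 68 genes, 1 panel for each knockdown, coloured by family. Filled points were called (adjusted p under 0.05 and at least 1.5-fold; dotted lines mark 1.5-fold), and labelled open points differed by 0.8 or more without being called. The called points are ITGA5 after siNELF-A, ITGB8 after siNELF-B, 5 genes in siNELF-C and COL12A1 after siNELF-E.

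Among the integrin alpha chains, ITGA5, the alpha chain of the fibronectin receptor, rose in siNELF-A. Its values were 6.11, 6.04 and 5.86 after siNELF-A, 4.84, 5.12 and 5.16 after siNELF-B, 5.80, 5.64 and 5.65 after siNELF-C, 5.57, 5.62 and 5.57 after siNELF-E and 5.29, 5.12 and 5.15 in control. All arrays of the siNELF-A, -C and -E groups lay above the control arrays, and those of siNELF-B overlapped them. The log2 difference from control in siNELF-A was 0.81 ± 0.12 SE, a 1.76-fold rise (limma, adjusted p = 0.00299). In siNELF-C the difference of 0.51 ± 0.12 SE had an adjusted p of 0.0268 but stayed under the fold limit at 1.42-fold, and in siNELF-E it was 0.40 ± 0.12 SE (adjusted p = 0.0818). ITGA5 was also lower in siNELF-B than in siNELF-A (-0.96 ± 0.12 SE, adjusted p = 0.00169) and higher in siNELF-C than in siNELF-B (0.66 ± 0.12 SE, adjusted p = 0.0154). The call in siNELF-A was kept when each of the 15 arrays was left out in turn (adjusted p 0.000723 to 0.0208) and was lost when the gene value was taken as the median of its exon-level probe sets (0.61, adjusted p = 0.106).

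ITGAV, the alpha chain that pairs with ITGB1, ITGB3, ITGB5, ITGB6 and ITGB8 to bind RGD-containing ligands, was bright and not called. Its values were 7.40, 7.30 and 7.25 after siNELF-A, 6.98, 7.57 and 5.88 after siNELF-B, 6.86, 6.69 and 6.97 after siNELF-C, 7.60, 7.64 and 7.79 after siNELF-E and 6.88, 6.93 and 7.09 in control. The siNELF-E arrays all lay above the control arrays, by 0.71 ± 0.30 SE (1.63-fold, adjusted p = 0.242), and siNELF-B replicate 3 lay lowest of the 15. With siNELF-B replicates 2 and 3 left out the same difference was called (adjusted p = 0.000852).

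The laminin-binding alpha chains ITGA6 and ITGA3 did not pass the test. ITGA6, which pairs with ITGB4 in hemidesmosomes and with ITGB1 elsewhere, had values of 5.55, 5.38 and 5.02 after siNELF-A, 5.49, 6.19 and 4.62 after siNELF-B, 5.72, 5.29 and 5.85 after siNELF-C, 5.63, 5.86 and 5.84 after siNELF-E and 6.19, 6.40 and 6.38 in control. It is described here because of its values, seen beforehand. All arrays of the siNELF-A, -C and -E groups lay below the control arrays, and siNELF-B replicate 2 overlapped them. The log2 differences were -1.01 after siNELF-A (adjusted p = 0.0977), -0.89 after siNELF-B (adjusted p = 0.0859), -0.71 after siNELF-C (adjusted p = 0.174) and -0.55 after siNELF-E (adjusted p = 0.424), each ± 0.31 SE. When siNELF-B replicates 2 and 3 were omitted, ITGA6 was called lower after siNELF-A, after siNELF-C, in siNELF-B (then 1 array, assumed to vary like the other groups) and in the average (-0.78 ± 0.14 SE, adjusted p = 0.00252). ITGA3, the other alpha chain of epithelial laminin receptors, averaged 5.94 ± 0.24 after siNELF-A, 6.10 ± 0.41 after siNELF-B, 5.89 ± 0.10 after siNELF-C, 6.04 ± 0.04 after siNELF-E and 6.38 ± 0.16 in control (SD, 3 arrays each), and its average difference of -0.39 ± 0.15 SE did not pass (adjusted p = 0.142). ITGA7, known from muscle, lay near the brightness limit at 4.04 over all arrays and was not called.

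ITGA2, the alpha chain of the collagen receptor that pairs with ITGB1, split between knockdowns in its values. They were 7.30, 7.37 and 6.93 after siNELF-A, 5.91, 6.84 and 4.59 after siNELF-B, 5.99, 5.73 and 6.09 after siNELF-C, 6.86, 6.95 and 7.16 after siNELF-E and 6.62, 6.77 and 6.93 in control. The siNELF-A arrays lay above all control arrays, the siNELF-C arrays lay below them, and the siNELF-B arrays spread on both sides of the lowest control array. Differences from control were 0.43 after siNELF-A, -1.0 after siNELF-B, -0.84 after siNELF-C and 0.22 after siNELF-E, each ± 0.39 SE, with adjusted p of 0.626, 0.123, 0.208 and 0.885 in that order. Without siNELF-B replicates 2 and 3, ITGA2 was called lower in siNELF-C (-0.84 ± 0.15 SE, adjusted p = 0.00192) and in siNELF-B, there as a single array (-0.87, adjusted p = 0.0145). The collagen-binding chains ITGA10 and ITGA11, the leukocyte chains ITGAL and ITGAX, and ITGA8, ITGA9 and ITGA2B lay between 1.83 and 4.18 over all arrays and none of these 7 was called.

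Among the integrin beta chains, ITGB1, the common partner of most alpha chains, was bright and not called: 8.35, 8.23 and 8.25 after siNELF-A, 8.16, 8.53 and 7.14 after siNELF-B, 8.40, 8.25 and 8.36 after siNELF-C, 8.52, 8.49 and 8.37 after siNELF-E and 8.13, 8.15 and 8.22 in control. The group mean furthest from control was that of siNELF-E, at 1.22-fold (adjusted p = 0.677), and siNELF-B replicate 3 was the lowest of the 15 arrays. The average difference was 0.09, with a 95% interval of -0.34 to 0.52.

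ITGB5, a partner of ITGAV in vitronectin binding, fell in siNELF-C. Its values were 6.79, 6.66 and 6.42 after siNELF-A, 7.15, 7.59 and 6.60 after siNELF-B, 6.48, 6.49 and 6.58 after siNELF-C, 6.42, 6.70 and 6.79 after siNELF-E and 7.34, 7.22 and 7.25 in control. All arrays of the siNELF-A, -C and -E groups lay below the control arrays, while siNELF-B overlapped them. The log2 difference in siNELF-C was -0.75 ± 0.21 SE (1.69-fold lower, limma, adjusted p = 0.0450), and those in siNELF-A (-0.65, adjusted p = 0.115) and siNELF-E (-0.63, adjusted p = 0.103) did not pass. The siNELF-C call was kept without siNELF-B replicate 2 or 3 and was lost without any other single array (adjusted p 0.0510 to 0.142), and after quantile normalization the difference was -0.39. Without both of these arrays, ITGB5 was called lower in the siNELF-A, -C and -E groups (adjusted p = 0.00474, 0.00117 and 0.00451).

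ITGB8, the partner of ITGAV that binds latent TGF-beta, fell in siNELF-B and siNELF-C. Its values were 3.42, 3.91 and 3.41 after siNELF-A, 3.30, 3.56 and 3.15 after siNELF-B, 3.56, 3.18 and 3.30 after siNELF-C, 4.12, 4.15 and 4.01 after siNELF-E and 3.96, 4.14 and 4.08 in control. All arrays of siNELF-A, siNELF-B and siNELF-C lay below the control arrays, siNELF-E overlapped them, and the knockdown means of siNELF-A, siNELF-B and siNELF-C lay below the brightness limit. The differences were -0.73 ± 0.16 SE in siNELF-B (1.65-fold lower, adjusted p = 0.0334) and -0.72 ± 0.16 SE in siNELF-C (1.64-fold lower, adjusted p = 0.0224). ITGB8 was also higher in siNELF-E than in siNELF-B (0.76 ± 0.16 SE, adjusted p = 0.0166) and than in siNELF-C (0.75 ± 0.16 SE, adjusted p = 0.0185). With each array centred on its 75th percentile, the differences from control were -0.26 after siNELF-B (adjusted p = 0.263) and -0.37 after siNELF-C (adjusted p = 0.170). The siNELF-B call was lost without siNELF-B replicate 1 or 3, siNELF-C replicate 3, or any array of siNELF-E or control (adjusted p 0.0515 to 0.134), and the siNELF-C call without siNELF-C replicate 2 or 3 or any control array (adjusted p 0.0558 to 0.104).

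ITGB6, another ITGAV partner, lay below the brightness limit in every group, so no fold is given, and it is named because of its values. It averaged 2.48 after siNELF-A, 2.55 after siNELF-B, 3.10 after siNELF-C, 3.11 after siNELF-E and 2.58 in control, and siNELF-C and siNELF-E differed from siNELF-A (adjusted p = 0.0268 and 0.0183). ITGB4, the hemidesmosome chain, averaged 6.50 ± 0.10 after siNELF-A, 6.71 ± 0.31 after siNELF-B, 6.75 ± 0.10 after siNELF-C, 6.48 ± 0.13 after siNELF-E and 6.63 ± 0.12 in control (SD, 3 arrays each). Every knockdown of ITGB4 overlapped the control arrays, and its average difference was -0.02 with a 95% interval of -0.28 to 0.25. The remaining beta chains ITGB2, ITGB3 and ITGB7 were at or below 3.94 over all arrays and were not called.

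Of the 9 laminin chains, none was called against control in any knockdown. LAMB2, a beta chain of basement membrane laminins, averaged 8.28 ± 0.24 after siNELF-A, 8.16 ± 0.25 after siNELF-B, 8.56 ± 0.05 after siNELF-C, 8.33 ± 0.07 after siNELF-E and 8.18 ± 0.04 in control (SD, 3 arrays each). The siNELF-C and siNELF-E arrays lay above the control arrays, by 0.38 ± 0.15 SE (adjusted p = 0.132) and 0.15 ± 0.15 SE (adjusted p = 0.736). LAMA5, the main alpha chain of epithelial basement membranes, averaged 6.72 ± 0.23 after siNELF-A, 7.02 ± 0.07 after siNELF-B, 7.14 ± 0.06 after siNELF-C, 6.82 ± 0.11 after siNELF-E and 6.88 ± 0.15 in control, and its average difference was 0.04 with a 95% interval of -0.19 to 0.27.

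LAMB1 and LAMC1 are the beta and gamma chains that join LAMA5 in a common epithelial laminin. LAMB1 had values of 6.51, 6.49 and 6.09 after siNELF-A, 7.04, 7.24 and 6.14 after siNELF-B, 7.67, 7.59 and 7.62 after siNELF-C, 6.93, 6.88 and 7.21 after siNELF-E and 7.17, 7.10 and 7.26 in control. All siNELF-A arrays lay below and all siNELF-C arrays above the control arrays. The difference from control was -0.82 ± 0.23 SE in siNELF-A (adjusted p = 0.0785) and 0.45 ± 0.23 SE in siNELF-C (adjusted p = 0.246), and the direct difference of siNELF-C from siNELF-A was called at 1.26 ± 0.23 SE (2.40-fold higher, adjusted p = 0.0115). LAMC1 had values of 6.16, 6.17 and 5.92 after siNELF-A, 6.81, 6.79 and 5.33 after siNELF-B, 6.52, 6.56 and 6.59 after siNELF-C, 6.30, 6.38 and 6.53 after siNELF-E and 6.71, 6.88 and 6.92 in control. Its arrays of the siNELF-A, -C and -E groups all lay below the control arrays, with differences of -0.75 (adjusted p = 0.211), -0.28 (adjusted p = 0.582) and -0.43 (adjusted p = 0.556), each ± 0.30 SE. With siNELF-B replicates 2 and 3 left out, LAMB1 and LAMC1 were both called lower in siNELF-A (adjusted p = 0.00178 and 0.000837). The other laminin chains were LAMC3 (4.80 over all arrays) and the dim LAMA1, LAMA2, LAMA4 and LAMB4.

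Among the collagens, the fibril-associated chain COL12A1, which coats collagen fibres, fell in siNELF-E. Its values were 8.12, 7.86 and 7.64 after siNELF-A, 8.16, 8.48 and 6.79 after siNELF-B, 8.36, 8.26 and 8.40 after siNELF-C, 7.03, 6.98 and 7.39 after siNELF-E and 8.45, 8.58 and 8.68 in control. All arrays of the siNELF-A, -C and -E groups lay below the control arrays, siNELF-E lowest among these 3 groups, and siNELF-B overlapped control through its replicate 2. The difference in siNELF-E was -1.43 ± 0.32 SE (2.70-fold lower, limma, adjusted p = 0.0191), and siNELF-E also lay below siNELF-C (-1.21 ± 0.32 SE, adjusted p = 0.0483). In siNELF-A and siNELF-B the differences of -0.69 and -0.76 passed 1.5-fold and not the test (adjusted p = 0.297 and 0.144), and in siNELF-C the difference was -0.23 (adjusted p = 0.689). The siNELF-E call was lost without siNELF-E replicate 1 or 2 or any of the 3 control arrays, with adjusted p of 0.0530 to 0.0807. When siNELF-B replicates 2 and 3 were omitted it had an adjusted p of 5.26e-05, and COL12A1 was then called lower in siNELF-A (adjusted p = 0.00759) and in the average (-0.69 ± 0.12 SE, adjusted p = 0.00199) as well. A lower signal in bulk RNA cannot distinguish less RNA per cell from fewer cells that express the gene, here and for the other genes.

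COL5A2, a chain of the type V collagen that takes part in the start of fibril assembly, rose in siNELF-C. Its values were 3.99, 4.20 and 4.10 after siNELF-A, 4.0, 3.85 and 3.79 after siNELF-B, 5.34, 5.0 and 5.33 after siNELF-C, 3.88, 4.0 and 3.93 after siNELF-E and 3.93, 3.88 and 3.84 in control. The siNELF-C arrays stood above every other array, the lowest of them at 5.0 and the highest of the rest at 4.20. The difference from control was 1.34 ± 0.12 SE (2.54-fold higher, adjusted p = 7.08e-05). COL5A2 was called in each comparison of siNELF-C with another knockdown: 1.13 ± 0.12 SE over siNELF-A (adjusted p = 0.000429), 1.35 ± 0.12 SE over siNELF-B (adjusted p = 0.000167), and -1.29 ± 0.12 SE for siNELF-E minus siNELF-C (adjusted p = 8.38e-05). The call against control was kept in 25 of 25 alternative settings, among them each of the 15 arrays left out in turn.

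Other chains of types V and I gave smaller values. COL5A1, the partner of COL5A2 in the type V trimer, is described because of its values: 4.75, 4.58 and 4.87 after siNELF-A, 4.88, 4.33 and 5.50 after siNELF-B, 5.13, 5.3 and 5.07 after siNELF-C, 4.75, 4.70 and 4.48 after siNELF-E and 4.67, 4.49 and 4.30 in control. All siNELF-C arrays lay above the control arrays, by 0.68 ± 0.23 SE (1.60-fold, adjusted p = 0.0931). Without siNELF-B replicates 2 and 3 this difference was called (adjusted p = 0.00280). COL1A2, a chain of the stromal type I collagen, averaged 4.25 after siNELF-A, 4.17 after siNELF-B, 4.17 after siNELF-C, 4.06 after siNELF-E and 4.01 in control, and its adjusted p was at least 0.390 in each knockdown. COL1A1, the other type I chain, averaged 5.48 after siNELF-A, 6.02 after siNELF-B, 5.89 after siNELF-C, 5.64 after siNELF-E and 5.85 in control, and was not called. In siNELF-C, 1 of the 10 fibrillar chains was called and 10 of 10 differences were above 0, with a median of 0.26.

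COL4A5, a chain of the basement membrane's type IV collagen network, rose in siNELF-C. Its values were 6.33, 6.01 and 5.62 after siNELF-A, 6.35, 6.87 and 6.08 after siNELF-B, 7.33, 7.15 and 7.30 after siNELF-C, 6.55, 6.64 and 6.59 after siNELF-E and 6.56, 5.91 and 6.57 in control. The siNELF-C arrays lay above all other arrays, and the other 3 knockdowns overlapped control, whose replicate 2 lay below its other arrays. The difference from control was 0.91 ± 0.23 SE (1.88-fold higher, adjusted p = 0.0352), and that from siNELF-A was 1.27 ± 0.23 SE (2.41-fold higher, adjusted p = 0.0115). The call against control was lost without siNELF-A replicate 2 or without any array of siNELF-C, siNELF-E or control (adjusted p 0.0516 to 0.122), and without control replicate 2 the difference was 0.69. Genes of type IV chains stand in head-to-head pairs that share a promoter region, and COL4A6 is the neighbour of COL4A5. COL4A6 averaged 3.29 after siNELF-A, 3.61 after siNELF-B, 3.65 after siNELF-C, 3.43 after siNELF-E and 3.50 in control, below the brightness limit in every group. COL4A2 averaged 4.51 ± 0.06 after siNELF-A, 4.69 ± 0.56 after siNELF-B, 4.77 ± 0.13 after siNELF-C, 4.46 ± 0.17 after siNELF-E and 4.18 ± 0.12 in control, and its difference in siNELF-C of 0.59 ± 0.22 SE did not pass (adjusted p = 0.117). The neighbour of COL4A2, COL4A1, averaged 3.67 after siNELF-C and 3.41 in control, both below the limit.

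COL6A1, a chain of the beaded-filament type VI collagen, rose in siNELF-C. Its values were 5.72, 5.91 and 5.97 after siNELF-A, 5.99, 5.64 and 6.35 after siNELF-B, 6.34, 6.45 and 6.37 after siNELF-C, 5.83, 6.00 and 5.83 after siNELF-E and 5.68, 5.76 and 5.48 in control. The arrays of siNELF-C and siNELF-E lay above the control arrays, and those of siNELF-A and siNELF-B overlapped them. The difference in siNELF-C was 0.74 ± 0.16 SE (1.68-fold higher, adjusted p = 0.0194), and in the other knockdowns it was 0.23 to 0.35 with adjusted p of 0.171 to 0.540. The call was lost without each of the 3 siNELF-C arrays and control replicates 1 and 3 (adjusted p 0.0565 to 0.0973), and with the array's interquartile range as a covariate the difference was 0.47. COL6A2, its partner in the same trimer, averaged 5.54 ± 0.10 after siNELF-A, 5.48 ± 0.28 after siNELF-B, 5.63 ± 0.11 after siNELF-C, 5.41 ± 0.12 after siNELF-E and 5.21 ± 0.20 in control (SD, 3 arrays each), and was not called (siNELF-C difference 0.43, adjusted p = 0.116). COL9A3, a cartilage collagen chain, averaged 5.97 ± 0.17 after siNELF-A, 6.10 ± 0.45 after siNELF-B, 6.40 ± 0.14 after siNELF-C, 5.89 ± 0.17 after siNELF-E and 5.78 ± 0.16 in control, and its difference of 0.62 ± 0.20 SE in siNELF-C had an adjusted p of 0.0779. No other collagen gene was called in any comparison.

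**Figure D3:**
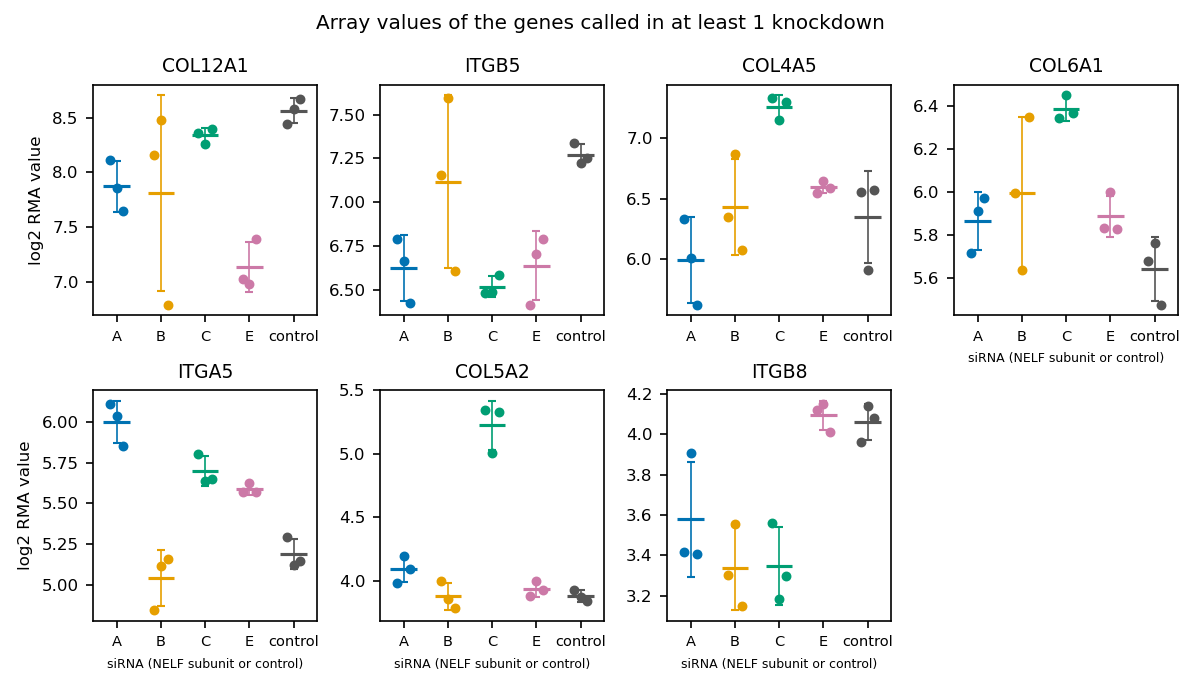
Log2 RMA values of each array (points) with the mean (line) and SD of 3 arrays (bar) for the 7 genes called in at least 1 knockdown, by siRNA group (x axis: NELF subunit A, B, C or E, and control). The y axes differ between panels. The 3 siNELF-C points of COL5A2 (5.0 to 5.34) sit above all others, the siNELF-E points of COL12A1 (6.98 to 7.39) sit below control, and the siNELF-B points spread widely for COL12A1 and ITGB5.

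Direct tests between knockdowns covered 6 pairs. They gave 12 calls in 7 of the 68 genes. In siNELF-B against siNELF-A 1 gene was lower (4.28% of all clusters called, 0.818% higher and 3.46% lower). In siNELF-C against siNELF-A 4 genes were higher (2.87% called, 1.21% higher and 1.66% lower). In siNELF-E against siNELF-A 1 gene was higher (4.05% called, 2.56% higher). In siNELF-C against siNELF-B 2 genes were higher (2.14% called, 1.6% higher and 0.536% lower). In siNELF-E against siNELF-B 1 gene was higher (6.9% called, 5.74% higher and 1.16% lower). In siNELF-E against siNELF-C 1 gene was higher and 2 were lower (5.18% called, 3.59% higher and 1.59% lower). COL5A2 was called in 3 of these pairs, ITGA5, ITGB6 and ITGB8 in 2 each, and COL12A1, COL4A5 and LAMB1 in 1 each. A call against control in 1 knockdown and not in another was thus also met by a direct difference for ITGA5 (siNELF-A and siNELF-B), COL5A2 (siNELF-C and each other knockdown), COL4A5 (siNELF-C and siNELF-A), COL12A1 (siNELF-E and siNELF-C) and ITGB8 (siNELF-B and siNELF-C, each with siNELF-E), and for no pair in COL6A1 or ITGB5.

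With siNELF-B replicates 2 and 3 left out, more of the 68 genes were called, and more clusters of all kinds. The counts were 0 higher and 2 lower in the average (10.4% of all clusters called), 1 higher and 5 lower in siNELF-A (10.3%), 0 higher and 3 lower in siNELF-B, then 1 array assumed to vary like the other groups (19.2%), 6 higher and 4 lower in siNELF-C (17.1%) and 1 higher and 2 lower in siNELF-E (10.7%). In this setting 15 of the 68 genes were called in at least 1 knockdown, the 7 genes named above among them, and 5 genes in 2 or more. The 6 genes higher in siNELF-C were then all collagens (COL5A2, COL4A5, COL6A1, COL5A1, COL9A3 and COL4A2), and the 4 lower ones all integrin chains (ITGA2, ITGA6, ITGB5 and ITGB8).

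The 68 genes also lay slightly above the bulk of the clusters as a group. Their median log2 difference from control was 0.15 in the average, against -0.08 for all clusters. It was 0.14 after siNELF-A against -0.03 for all clusters, 0.16 after siNELF-B against -0.14, 0.19 after siNELF-C against -0.08, and 0.08 after siNELF-E against -0.02. Differences above 0 were given by 54 of 68 genes in the average, 51 after siNELF-A, 52 after siNELF-B, 55 after siNELF-C and 55 after siNELF-E. Over all clusters the share above 0 was 41.3% in the average, 46.5% after siNELF-A, 38.8% after siNELF-B, 43.1% after siNELF-C and 47% after siNELF-E, and 60.7% in the average among clusters below the 40th percentile. Of the 38 collagens 34 were above 0 in the average (median 0.20), of the 13 integrin alpha chains 8 (0.09), of the 8 integrin beta chains 5 (0.10) and of the 9 laminins 7 (0.04). In the 31 dim genes the average median was 0.11, against 0.05 for all clusters below the 40th percentile, and in the other 37 it was 0.24, against -0.21 for all clusters at or above it.

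The size of this shift moved with the spread of values on the array, though not within every group. The median of the 68 genes relative to the control mean was 0.16, -0.00 and 0.31 on siNELF-B replicates 1, 2 and 3, whose interquartile ranges were 3.57, 4.02 and 3.12. It was 0.18 to 0.23 on siNELF-C arrays, whose ranges were 3.61 to 3.75, and -0.06 to 0.03 on control arrays. Within siNELF-C the array of narrowest range, replicate 2, had the smallest shift (0.18). With the interquartile range as a covariate, the median was 0.05 in the average, 0.05 after siNELF-A, 0.01 after siNELF-B, 0.07 after siNELF-C and 0.04 after siNELF-E. The range also differed between groups (3.95 to 4.12 in control), so this covariate cannot fully separate it from the knockdowns. Centring each array on its 75th percentile moved the median of all clusters to 0.21 in the average; such centring moves all genes alike and leaves their distance from that median fixed. After quantile normalization the 68 genes lay 0.17 above all clusters, against 0.23 in the deposited values. The deposited values gave 7.27% of all calls in the average as higher, against 24.3% after quantile normalization, 19.0% after median centring and 37.5% after 75th percentile centring. In the single knockdowns the 3 scalings gave 17.6% to 53.0% of calls as higher, against 4.65% to 26.3% in the deposited values.

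**Figure D4:**
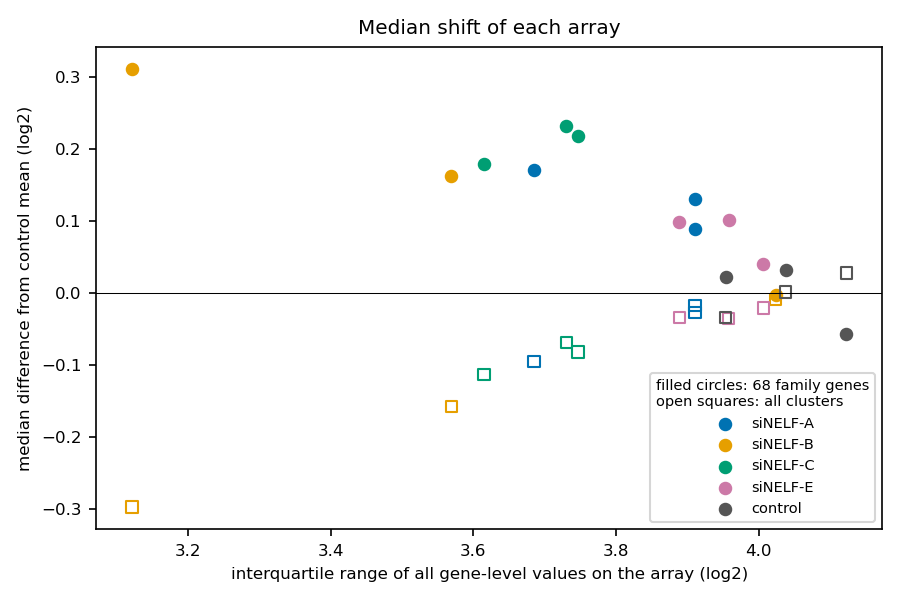
Median log2 difference from the control mean on each of the 15 arrays (y axis) against the interquartile range of all gene-level values on that array (x axis). Filled circles are medians of the 68 genes and open squares medians of all clusters. Circles rise and squares fall toward the arrays of narrow range, furthest on siNELF-B replicate 3 (0.31 and -0.30 at a range of 3.12).

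Counted by whole groups of arrays, 26 of the 68 genes had all 3 siNELF-A arrays above all 3 control arrays, where 12% of all clusters did. In siNELF-B 5 genes did (5.57% of all clusters), in siNELF-C 36 (15.1%) and in siNELF-E 16 (13.5%). All arrays lay below control for 11 genes in siNELF-A (22.5% of all clusters), 1 after siNELF-B (16.6%), 8 after siNELF-C (31.3%) and 5 after siNELF-E (21.1%). The spread of values on the arrays moved with the median of the 68 genes, as given above, and its part in these counts was not tested.

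The exon-level table held 3021 probe sets for the 68 genes, from the same arrays, so it shows how a difference is spread along a gene and is no separate evidence for it. In siNELF-A 1 probe set was called, higher (0.618% of all probe sets called, 0.0623% higher). In siNELF-B 1 was called, higher (0.164% called, 0.00661% higher), and in siNELF-C 18 were, 16 higher and 2 lower (1.15% called, 0.181% higher and 0.969% lower). In siNELF-E 23 were called, all lower (1.6% called, 1.35% lower), and in the average 1, lower (0.875% called, 0.0574% higher and 0.818% lower). COL12A1 held all 23 calls in siNELF-E, and 74 of its 74 probe sets lay below control there, with a median of -1.44. The 74 were also all below control in siNELF-A (median -0.72), as were 71 after siNELF-B (-0.72) and 63 after siNELF-C (-0.23). COL5A2 held 14 of the 18 calls in siNELF-C, and 57 of its 60 probe sets lay above control (median 1.08). For ITGA5, 31 of 32 probe sets lay above control in siNELF-A (median 0.76), with 1 called, and in siNELF-B 14 lay above and 18 below.

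In the other called genes most probe sets also lay on the same side of control. In siNELF-C, 55 of 63 probe sets of COL4A5 and 32 of 34 of COL6A1 lay above control, with medians of 0.76 and 0.67 and 1 call, in COL4A5. There, 18 of 21 probe sets of ITGB5 and 16 of 18 of ITGB8 lay below control, with medians of -0.88 and -0.74 and 2 calls, both in ITGB8. The ITGB5 probe sets 2692864, 2692865, 2692866 and 2692867, the last by number, did not share the fall in siNELF-C. Their differences were 0.54, 0.44, -0.01 and 0.13, and their positions on the gene were not used. In some genes not called against control at the gene level, most probe sets also lay on the same side of control in a knockdown. Probe sets of a gene are read on the same arrays and are not repeats of a condition, so these counts test no difference. ITGA2 lay above control in 30 of 31 probe sets in siNELF-A and below it in 29 after siNELF-B and 31 after siNELF-C. ITGA6 lay below control in 30 of 31 after siNELF-A and 31 after siNELF-B and siNELF-C each. LAMB1 lay below control in 38 of 42 after siNELF-A and above it in 39 after siNELF-C. COL5A1 lay above control in 67 of 70 after siNELF-C, with 1 call. The single call in siNELF-B was a probe set of COL4A3, a dim gene.

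**Figure D5:**
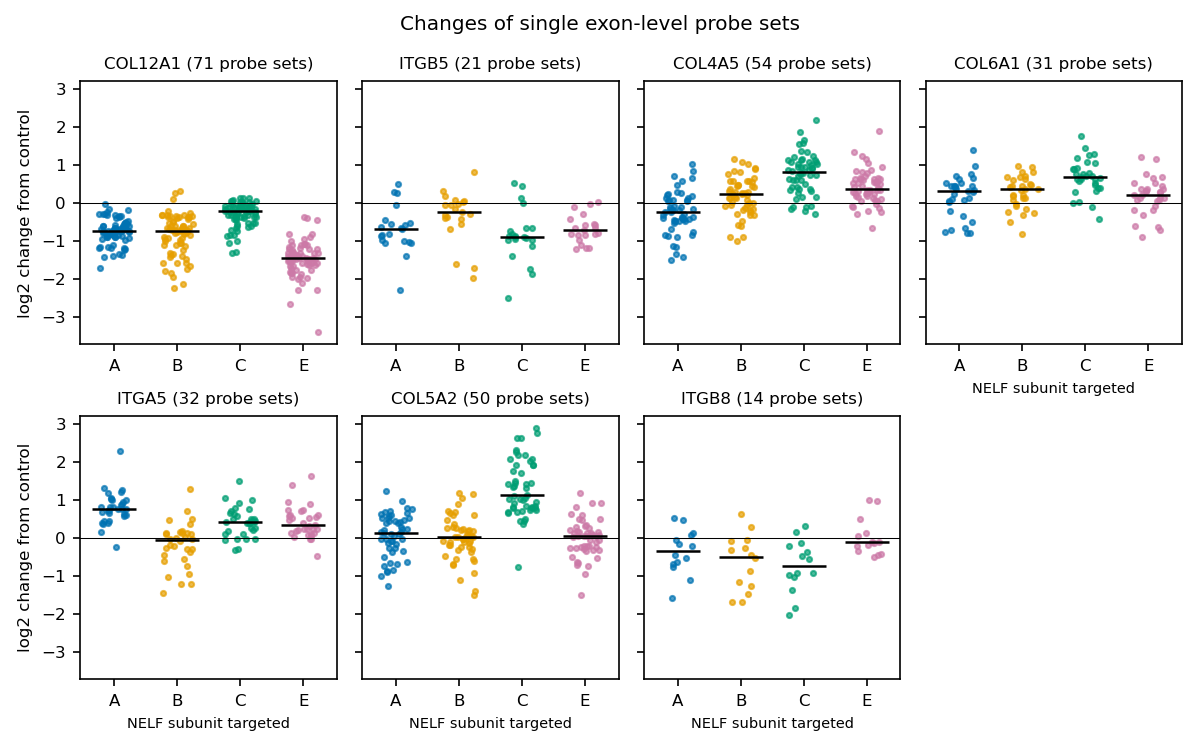
Log2 difference from control (y axis) of single exon-level probe sets (points) with their median (black line) in each knockdown (x axis: NELF subunit targeted), for the 7 called genes. Probe sets below the 25th percentile of exon-level means are left out, so COL12A1 is shown with 71 and COL5A2 with 50 probe sets. The points of COL12A1 lie below 0 after siNELF-E throughout, and nearly all points of COL5A2 lie above 0 after siNELF-C.

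A probe set that moves apart from the rest of its gene can mark a change of exon or transcript start, which is a question the series title raises. This was tested for 153781 probe sets of 9838 genes, of which 1365 probe sets belonged to 33 of the 68 genes. Called were 0 after siNELF-A (0.21% of all tested), 2 after siNELF-B (0.853%), 6 after siNELF-C (0.553%), 0 after siNELF-E (0.133%) and 4 in the average (0.352%). ITGA3 probe set 3726163 had values of 4.93, 4.44 and 4.87 after siNELF-A, 0.97, 3.85 and 3.15 after siNELF-B, 4.18, 2.95 and 4.88 after siNELF-C, 3.64, 5.77 and 5.81 after siNELF-E and 6.08, 5.71 and 6.58 in control. Relative to the other probe sets of ITGA3, 39 in all, it differed by -3.33 after siNELF-B (adjusted p = 3.96e-08) and -1.72 after siNELF-C (adjusted p = 0.0356). ITGA3 probe set 3726199 differed by 2.11 after siNELF-C (adjusted p = 0.00359), with values of 5.21, 5.0 and 4.90 after siNELF-C and 3.63, 3.34 and 3.27 in control. COL6A2 probe set 3924477 had values of 7.56, 6.27 and 8.13 after siNELF-B and 2.83, 6.14 and 4.72 in control and differed by 2.34 (adjusted p = 0.00195), with control arrays spread from 2.83 to 6.14.

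In siNELF-C, COL6A2 probe set 3924477 was also called (1.78, adjusted p = 0.0497). The other probe sets called there were ITGAV probe set 2519280 (-2.06, adjusted p = 0.0351), COL23A1 probe set 2889566 (-1.83, adjusted p = 0.0265) and COL9A3 probe set 3893021 (-1.66, adjusted p = 0.0467). None of these 6 probe sets passed the plain test of its own difference from control, where the adjusted p ran from 0.0632 to 0.175 in the called comparisons. Sequence positions of these probe sets on their genes were not used here.

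Genes that work with these chains were taken from 5 lists, and their calls are given against the shares for all clusters above. Of 34 measured genes of integrin adhesion and signalling, 0 rose and 3 fell in siNELF-A, 0 and 0 after siNELF-B, 1 and 2 after siNELF-C, 2 and 1 after siNELF-E, and 1 and 1 in the average. PXN, the focal adhesion adaptor paxillin, averaged 7.94 ± 0.29 after siNELF-A, 7.53 ± 0.66 after siNELF-B, 7.79 ± 0.07 after siNELF-C, 8.15 ± 0.10 after siNELF-E and 7.02 ± 0.19 in control (SD, 3 arrays each). It rose in siNELF-E (2.18-fold, adjusted p = 0.0209) and in the average (1.78-fold, adjusted p = 0.0332). ACTN1, which links integrins to actin filaments, fell in siNELF-E (8.44 after siNELF-E and 9.20 in control, adjusted p = 0.0411) and in the average (adjusted p = 0.0364). TNS2, a tensin that binds integrin tails, fell in siNELF-A (4.77 after siNELF-A and 5.88 in control, adjusted p = 0.0126), while ACTN4 was not called (average difference -0.21, adjusted p = 0.461).

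Ligands of these receptors gave calls of their own. Of 22 measured genes of interstitial matrix proteins, 1 rose and 2 fell in siNELF-A, 0 and 0 after siNELF-B, 1 and 0 after siNELF-C, 0 and 2 after siNELF-E, and 0 and 1 in the average. FN1, fibronectin, the ligand of the ITGA5 and ITGB1 receptor, had values of 3.84, 3.77 and 3.60 after siNELF-A, 5.10, 5.77 and 4.19 after siNELF-B, 4.74, 4.51 and 4.90 after siNELF-C, 4.26, 4.57 and 4.53 after siNELF-E and 5.54, 5.66 and 5.89 in control. It fell in siNELF-A (3.89-fold lower, adjusted p = 0.00299), where ITGA5 rose, and in siNELF-E (2.37-fold lower, adjusted p = 0.0234) and the average (adjusted p = 0.00897). CCN1, a matrix-associated integrin ligand, rose in siNELF-A (6.57 after siNELF-A and 5.78 in control, adjusted p = 0.0158) and siNELF-C (6.58, adjusted p = 0.0115), and MATN2 fell in siNELF-A (adjusted p = 0.0336). EMILIN1 was not called.

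Of 21 measured genes of the basement membrane and its other receptors, 0 rose and 1 fell in siNELF-A, 0 and 3 after siNELF-B, 1 and 1 after siNELF-C, 1 and 3 after siNELF-E, and 0 and 1 in the average. SDC2, a heparan sulfate proteoglycan of the cell surface, had values of 4.95, 5.24 and 5.68 after siNELF-E and 7.13, 7.40 and 7.49 in control, 4.13-fold lower (adjusted p = 0.000886). NTN4, a laminin-related basement membrane protein, rose in siNELF-C (4.13 after siNELF-C and 2.47 in control, the control signal being below the 25th percentile of clusters, adjusted p = 0.0260), and DDR1, a collagen receptor kinase, was not called (average adjusted p = 0.548). FREM2 was called lower in siNELF-A, siNELF-C, siNELF-E and the average at levels below the brightness limit.

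Of 24 measured genes for collagen processing, 0 rose and 0 fell in siNELF-A and in siNELF-B, 0 and 2 after siNELF-C, 0 and 2 after siNELF-E, and 0 and 1 in the average. PLOD2, which hydroxylates lysines of collagen for crosslinking, had values of 7.07, 7.04 and 7.32 after siNELF-C and 8.54, 8.82 and 8.93 in control, 3.07-fold lower (adjusted p = 0.0136), in the knockdown where COL5A2, COL4A5 and COL6A1 rose. CRTAP, part of the collagen prolyl 3-hydroxylase complex, fell in siNELF-C (6.91 after siNELF-C and 7.89 in control, adjusted p = 0.0149), in siNELF-E (7.13, adjusted p = 0.0463) and in the average (adjusted p = 0.0261). COLGALT1, a collagen galactosyltransferase, fell in siNELF-E (6.67 after siNELF-E and 7.49 in control, adjusted p = 0.0292), and the collagen chaperone SERPINH1 was not called (average adjusted p = 0.257).

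Of 23 measured genes for matrix proteases and their inhibitors, 0 rose and 0 fell in siNELF-A, 0 and 3 after siNELF-B, 0 and 1 after siNELF-C, 0 and 1 after siNELF-E, and 0 and 1 in the average. MMP16, a membrane-bound matrix metalloproteinase, averaged 7.48 ± 0.07 after siNELF-A, 5.74 ± 0.79 after siNELF-B, 5.19 ± 0.10 after siNELF-C, 6.21 ± 0.05 after siNELF-E and 6.87 ± 0.09 in control. It fell in siNELF-B (adjusted p = 0.0429) and siNELF-C (3.21-fold lower, adjusted p = 0.00458). After siNELF-A all 3 arrays of MMP16 lay above control without passing the test (0.61, adjusted p = 0.275), and siNELF-B, siNELF-C and siNELF-E each lay below siNELF-A (adjusted p = 0.00570, 0.000797 and 0.0183). TIMP1, an inhibitor of metalloproteinases, averaged 6.54 ± 0.22 after siNELF-A, 5.96 ± 0.56 after siNELF-B, 7.35 ± 0.09 after siNELF-C, 6.39 ± 0.36 after siNELF-E and 7.44 ± 0.09 in control, and fell in siNELF-B (adjusted p = 0.0113), in siNELF-E (adjusted p = 0.0245) and in the average (adjusted p = 0.0205). CTSB fell in siNELF-B (8.39 after siNELF-B and 9.33 in control, adjusted p = 0.0266), and TIMP2 was not called (average adjusted p = 0.320).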

How the data were processed

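Total RNA from T47D cells was measured on human exon arrays, and the same 15 arrays gave a gene-level and an exon-level table. The deposited values were log2 signals: per the labels, the authors normalized and summarised the arrays by RMA in ArrayAssist over core exons, and a software version is not given in the sources used here. No column of per-sample values was left unused (0). Groups came from the labels, 3 arrays each.

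From the deposited values, limma 3.58.1 in R 4.3.3 was fitted over all 22011 transcript clusters with 5 group means (lmFit and eBayes). Each knockdown, the average of the 4 and the 6 pairs of knockdowns were tested with Benjamini-Hochberg adjustment over all clusters within a comparison, and a call needed an adjusted p under 0.05 and at least 1.5-fold. The exon-level values were fitted in the same way, and exon usage with diffSplice, for probe sets at or above the 25th percentile in genes at or above the 40th percentile with 3 or more probe sets. Symbols came from the platform tables: 14432 clusters had 1 symbol, 2408 had several and 5171 were not listed.

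Genes were named by rule: every called one, up to 10 of the brightest uncalled ones and up to 6 usage probe sets. Each partner list gave up to 3 called genes and 1 bright uncalled gene. Outside this rule, ITGA6, ITGB6 and COL5A1 are marked as chosen by their values. Other chain genes described outside it, among them COL4A2, COL6A2, COL1A1, COL1A2 and ITGA7, were chosen by no set rule. The members and lists were chosen with earlier results of these data known. Scripts were tested on simulated data. No array pair held identical values (0 pairs). Equal replicate numbers were not used to pair the arrays. Correlations of deviations from group means for 30 same-numbered pairs ran from -0.297 to 0.203, and 3 exceeded 0.1. Pairs of different numbers were not computed for comparison, so this check cannot exclude a pairing. Alternatives were other scalings, the interquartile range as a covariate, array weights, filters, a replicate block, exon-level medians, and arrays left out. The number of arrays limits the precision.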

Additional observations from a re-analysis of the deposited data

How the results depend on the processing

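Among the 68 genes, no difference from control called in the deposited values changed sign under any alternative. Called differences between knockdowns and called genes of the partner lists were not followed over the settings. Uncalled average differences were followed over the settings only for the 7 called genes and the 10 brightest uncalled ones. Among these, a change of sign in at least 1 setting was seen for ITGA2 (-0.43 to 0.36 over the settings), LAMB1 (-0.36 to 0.11), ITGB1 (-0.05 to 0.46), ITGB4 (-0.09 to 0.28) and LAMA5 (-0.00 to 0.34). Other genes of the 68 changed sign too: 54 were above 0 in the average, and 61 after centring on the 75th percentile. The counts of called genes among the 68 were 0 in the average, 1 for siNELF-A, 1 for siNELF-B, 5 for siNELF-C, 1 for siNELF-E and 7 over pairs of knockdowns. Quantile normalization gave 1 in the average (3.89% of all clusters called), 3 for siNELF-A (4.8%), 2 for siNELF-E (7.41%) and 11 over pairs. Median centring gave 2 for siNELF-A (4.36% of all clusters called), 0 for siNELF-B (3.48%), 3 for siNELF-E (7.21%) and 13 over pairs. Centring on the 75th percentile gave 2 in the average (4.31% of all clusters called), 3 for siNELF-A (4.92%), 2 for siNELF-B (3.36%), 3 for siNELF-E (7.98%) and 12 over pairs. With the interquartile range as a covariate the counts were 1 in the average (3.48% of all clusters called), 4 for siNELF-A (6.75%), 0 for siNELF-B (1.04%), 2 for siNELF-E (9.86%) and 12 over pairs. Without siNELF-B replicates 2 and 3 they were 2 in the average, 6 for siNELF-A, 3 for siNELF-B, 10 for siNELF-C, 3 for siNELF-E and 12 over pairs; with array weights they were 2, 6, 3, 8, 3 and 12 in that order. The estimate of the array weights stopped before it converged, so those counts are less certain. With these weights 10.6% of all clusters were called in the average, 9.92% for siNELF-A, 28.2% for siNELF-B, 16.8% for siNELF-C and 11.6% for siNELF-E. Exon-level medians as gene values gave 0 for siNELF-A (2.34% of all genes so tested), 0 for siNELF-B (3.3%) and 2 for siNELF-C (5.1%). Over pairs of knockdowns, shares of all clusters were not computed in these settings, with single arrays left out or with a replicate block. The counts over pairs therefore cannot be told apart from a change over all clusters. The causes of these moves were not tested.

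Leaving out 1 array at a time gave 0 to 3 genes in the average, 1 to 6 for siNELF-A, 0 to 10 for siNELF-B, 1 to 10 for siNELF-C, 0 to 3 for siNELF-E and 4 to 13 over pairs. The highest counts came without siNELF-B replicate 2 in the average (3, with 13.1% of all clusters called) and siNELF-B (10, with 33.8%). Without siNELF-B replicate 3 they came for siNELF-A (6, with 8.8%) and siNELF-E (3, with 9.48%). Without either array they came in siNELF-C (10, with 13.7% without replicate 2 and 15.5% without replicate 3) and over pairs (13). The count in siNELF-B was 0 without siNELF-B replicate 1 or 3, siNELF-C replicate 3, or any siNELF-E or control array. The count in siNELF-C was 1 without siNELF-C replicate 3 or control replicate 1 or 3, and that in siNELF-E was 0 without siNELF-E replicate 1 or 2 or any control array. In these settings of low counts the shares of all clusters called were 0.395% to 1.82% in siNELF-B, 1.73% to 3.12% in siNELF-C and 3.14% to 3.72% in siNELF-E. Over pairs it was 4 without siNELF-C replicate 1.

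With the replicate number as a block, which pairs arrays by number alone, the counts were 0 in the average, 1 for siNELF-A, 1 for siNELF-B, 3 for siNELF-C, 1 for siNELF-E and 6 over pairs. The shares of all clusters called were then 3.8% in the average, 2.58% for siNELF-A, 1.91% for siNELF-B, 4.59% for siNELF-C and 4.7% for siNELF-E. Summed over the 4 knockdowns, without the average, the block gave 25 exon-level calls in place of 43, and 6 usage calls in place of 8. The 43 calls became 72 after quantile normalization and 295 without siNELF-B replicates 2 and 3. Shares over all probe sets were not computed in the alternative settings. The exon-level and usage counts given here therefore show nothing particular to the 68 genes. The 8 usage calls became 77 without siNELF-B replicates 2 and 3. They became 19 without the filters on dim probe sets and dim genes, where more probe sets were tested.

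Dim signal limits 31 of the 68 genes, and 3 repeats of 1 cell line limit all p-values. Over all clusters, 1059 were called in the average, 731 for siNELF-A, 967 for siNELF-B, 1369 for siNELF-C and 1206 for siNELF-E, against 2297, 2273, 4224, 3772 and 2348 without siNELF-B replicates 2 and 3.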
